A study of Mus musculus with 80 samples.

Results

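Coagulation and complement factors made by the liver were followed as a set of 38 genes, picked by symbol, in livers injured with carbon tetrachloride (CCl4), and all 38 were found among the 14560 genes measured. The rule for membership used no measured value, though the members were chosen with earlier results of these data known. RNA sequencing had been done on 80 livers, in 16 groups of 5, each library from a separately numbered mouse. Values are read counts per gene that the authors had normalized between libraries.

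The mice were 8-week-old C57BL/6J females, either wild type or Adamts12-/-, which lack a secreted metalloproteinase of the extracellular matrix. Which exons the Adamts12 allele lacks is not stated in the labels. Each mouse had 1 intraperitoneal dose, and livers were taken after 4 h, 12 h, 24 h or 7 days. Treated mice had CCl4, a solvent that hepatocytes turn into a toxic radical, at 0.3 ml/kg and 3% v/v in olive oil, and vehicle mice had olive oil. No uninjected liver was among the groups, so every level is that of an injected mouse.

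Hepatocytes secrete most clotting and complement proteins of blood plasma. Clotting factors circulate as inactive proteases and cofactors that activate each other in a cascade ending in thrombin and fibrin, which plasmin dissolves, and plasma serpins hold these proteases in check. Complement starts from the classical, lectin or alternative route, meets at C3 and ends in a pore of terminal components, and several of its genes are acute phase genes of the liver.

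Of the 38 genes, 29 were matched to RefSeq promoters of build GRCm38.p6, and Proc, Kng1, Plg, Serping1, Masp1, C2, C4b, Cfb and Cfi had no entry. The 120 bases before the start site are printed for 6 genes on which the results below turn. F7 and F9 were taken for the vitamin K factors, and F13b for the largest fall at 12 h in wild type. Hc and C3 were taken for complement, and C4bp for a smaller fall at 24 h than at 12 h in wild type. Capitals mark matches, on either strand, to motifs named for liver and acute phase regulators.
F7 (chr8:13025914-13026033, forward strand): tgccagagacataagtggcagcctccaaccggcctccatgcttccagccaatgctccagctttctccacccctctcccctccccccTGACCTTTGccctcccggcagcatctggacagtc
F9 (chrX:59999344-59999463, forward strand): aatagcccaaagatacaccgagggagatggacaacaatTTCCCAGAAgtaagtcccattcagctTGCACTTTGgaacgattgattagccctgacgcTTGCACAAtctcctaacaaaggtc
F13b (chr1:139501587-139501706, forward strand): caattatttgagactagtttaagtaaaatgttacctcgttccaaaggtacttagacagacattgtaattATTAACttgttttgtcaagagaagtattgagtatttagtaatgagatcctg
Hc (chr2:35061413-35061532, reverse strand): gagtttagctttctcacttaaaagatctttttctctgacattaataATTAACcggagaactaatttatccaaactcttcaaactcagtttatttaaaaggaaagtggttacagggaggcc
C3 (chr17:57228137-57228256, reverse strand): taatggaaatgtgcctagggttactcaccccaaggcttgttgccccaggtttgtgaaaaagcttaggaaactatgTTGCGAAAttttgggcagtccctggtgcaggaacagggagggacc
C4bp (chr1:130661619-130661738, reverse strand): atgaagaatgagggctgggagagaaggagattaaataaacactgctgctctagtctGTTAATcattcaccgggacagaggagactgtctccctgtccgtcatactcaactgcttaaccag

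In these stretches F7 held an HNF4 match, F9 held a STAT, an HNF4 and a C/EBP match in that order, F13b, Hc and C4bp each held an HNF1 half-site, and C3 held a C/EBP match. The search covered the 250 bases before each start, on both strands, and no matches within a gene overlapped. The HNF1 half-site GTTAAT was in 7 of the 29 member genes (24.1%) against 7.5% of 27025 genes, and the HNF4 letters CAAAGNNCA in 5 (17.2%) against 6.3%. The C/EBP letters TTGCNNAA were in 6 (20.7%) against 10.8%, the STAT letters TTCNNNGAA in 4 (13.8%) against 8.1%, and an NF-kB motif in 0 against 1.1%. None of the 5 motifs was in 11 members. A match describes letters only.

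Library totals recovered from the values ran from 18.6 to 64.5 M reads (median 32.74 M). Adamts12 averaged 15.1 to 58.1 normalized counts in the wild-type groups and 4.1 to 14.4 in the knockout groups, and single libraries overlapped, from 5.9 upward in wild type and up to 25.4 in the knockout. A pair of knockout libraries at 12 h stood with the other treatment and were left out: CCl4 replicate 5 lay nearer the vehicle group for 38 of 38 members, and vehicle replicate 1 lay nearer the CCl4 group for 37. Outside the set, Sprr1a was at 0.0 normalized counts in that CCl4 library and at 55860 in that vehicle library. The knockout livers kept at 12 h held 30657 to 94113 with CCl4 and 0.0 to 7.2 with vehicle. The groups of the left-out libraries kept 4 livers each, and 78 libraries were used. Among those kept, knockout CCl4 12 h replicate 1 was nearer vehicle for 31 of the 38 and wild-type CCl4 12 h replicate 2 for 20. The hepatocyte markers that define the tissue were abundant, with summed levels of 3791183 to 6541605 in wild-type vehicle livers at 12 h.

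CCl4 lowered nearly the whole set within a day of injection, and at day 7 no member was called. In wild-type livers 19 of the 38 members fell at 4 h, 37 at 12 h and 35 at 24 h, and in knockout livers 24, 36 and 36 fell. No member rose at any of these times in either genotype, whereas 23.1%, 29.0% and 26.2% of all genes rose in wild type and 21.1%, 23.6% and 21.1% in the knockout at 4 h, 12 h and 24 h. At day 7 limma with Benjamini-Hochberg adjustment called 0 members in either genotype, with 3 at an unadjusted p under 0.05 in wild type and 1 in the knockout. A liver with fewer hepatocytes and one with less RNA per hepatocyte cannot be told apart in such bulk samples. In wild type at 24 h, 4 of the 5 vehicle livers and 0 of the CCl4 livers came from mice numbered below 7000 in the labels. So did 2 CCl4 livers and 0 vehicle livers at 12 h, and 4 CCl4 livers and 2 vehicle livers at day 7. At these times of uneven numbering the CCl4 effect and a difference between the number series cannot be fully told apart.

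Over all 14558 genes tested, the call in either direction was made for 43.6%, 58.4%, 51.2% and 0.055% at 4 h, 12 h, 24 h and day 7 in wild type, and for 38.8%, 46.7%, 44.1% and 0.694% in the knockout. Calls of a fall alone were 20.5%, 29.4%, 25.0% and 0.0275% of genes in wild type and 17.7%, 23.1%, 23.0% and 0.385% in the knockout. The members' median log2 difference was -0.44, -1.50, -1.07 and 0.01 at the successive times in wild type, beside -0.03, -0.05, 0.04 and -0.01 over all genes. In the knockout the members' medians were -0.57, -1.34, -1.20 and -0.02, beside -0.00, -0.03, 0.02 and -0.00. Under quantile normalization, which forces all libraries to the same distribution, the members' medians were smaller, at -0.63 in wild type and -0.68 in the knockout at 24 h and -0.88 in the knockout at 12 h.

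As a share of the vehicle mean at the same time, the median member stood at 73.7% at 4 h, 36.0% at 12 h, 48.7% at 24 h and 100.8% at day 7 in wild type. The knockout shares were 66.8%, 41.2%, 45.4% and 97.9%. At 12 h the members ranged from 25.4% to 76.7% in wild type and from 30.4% to 76.7% in the knockout. Every CCl4 liver lay below every vehicle liver for 20, 31, 32 and 0 members in wild type, where 15.6%, 16.4%, 16% and 1.54% of all genes did so. For the knockout these were 23, 30, 32 and 0 members, beside 13.5%, 17.5%, 12.5% and 1.9% of all genes.

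**Figure D1:**
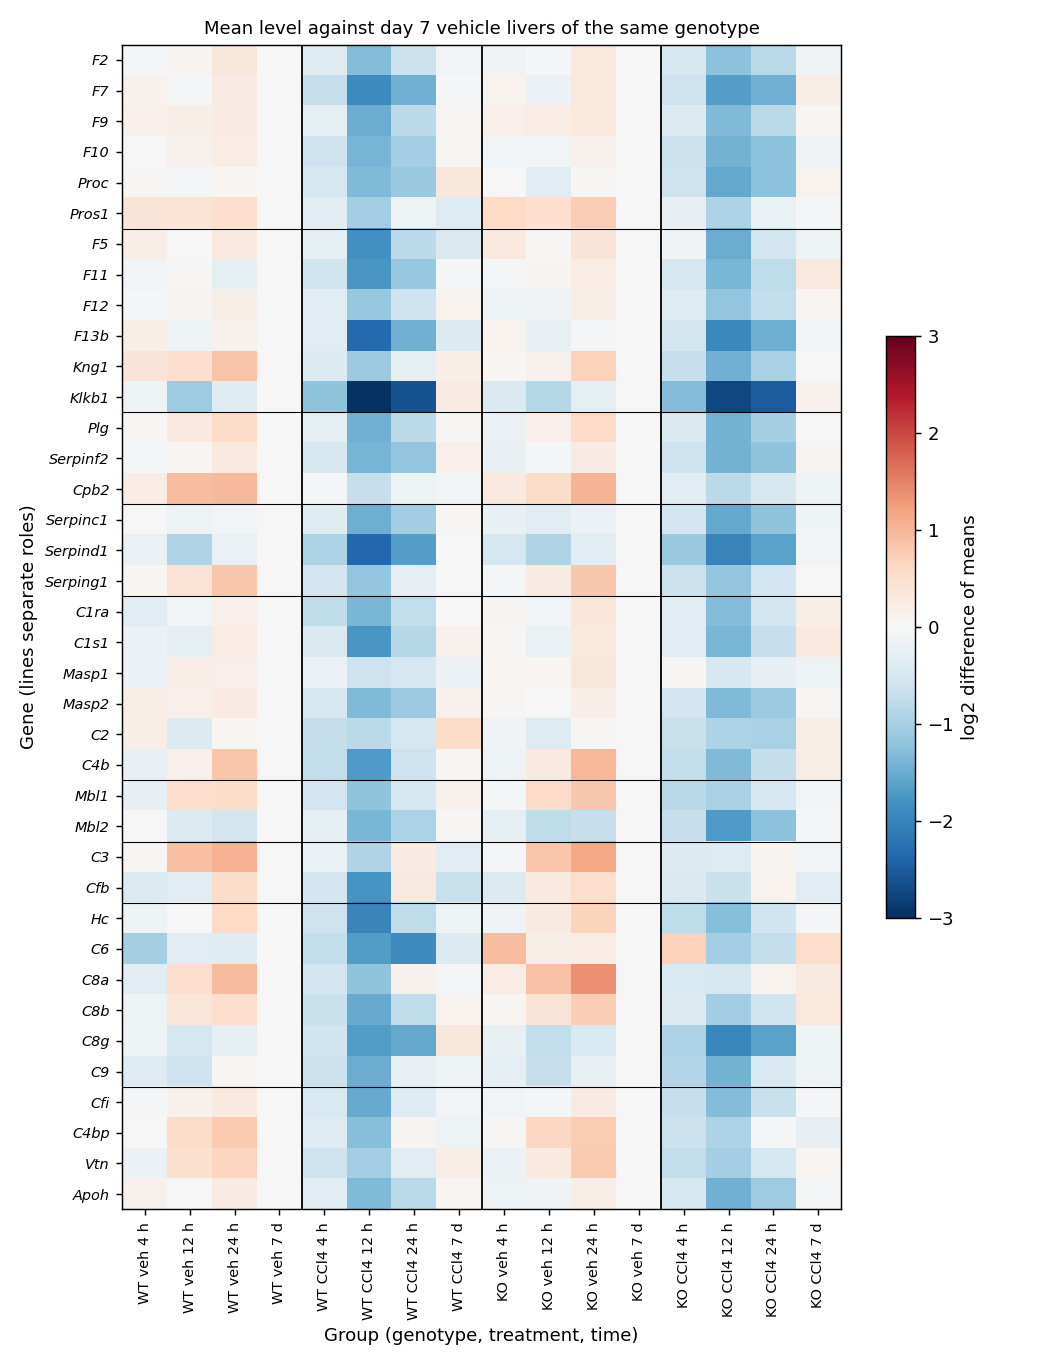
Heat map of the 38 genes (rows, lines separating roles) in the 16 groups (columns, genotype, treatment and time), coloured by the log2 difference of the group mean from the day 7 vehicle mean of the same genotype, without the libraries left out. The CCl4 columns at 12 h are the darkest blue, and vehicle columns at 24 h hold red cells for C3, Cpb2 and C8a.

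Calls made at 4 h, 12 h and 24 h in both genotypes, 6 comparisons in all, included 16 members each time: F2, F7, F9, F10, Proc, Pros1, Kng1, Serpinc1, Serping1, C1ra, Masp2, C4b, C8g, Cfi, Vtn and Apoh. Another 9 were called in 5 of the 6 comparisons and 10 in 4. The least often called were Mbl2 in 3, C9 in 2 and Cfb in 1. At 4 h 17 members were called in both genotypes, at 12 h 36, and at 24 h 35. The share of all genes called jointly in several comparisons was not counted, so these joint counts are not set against other genes. With the left-out libraries kept in their labelled groups, 26 members fell at 12 h in the knockout, where the members' median became -0.74. The 4 h counts were then 9 in wild type and 14 in the knockout, although the members' median differences at 4 h did not change.

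The vitamin K dependent proteins are modified by a liver carboxylase so that they bind calcium and membranes. All 6 in the set, the procoagulant F2 (prothrombin), F7, F9 and F10 and the anticoagulants Proc (protein C) and Pros1 (protein S), fell at 4 h, 12 h and 24 h in both genotypes. F7, which starts clotting with tissue factor, had vehicle levels at 12 h of 4130.0, 3965, 4203, 4299 and 4734 in the 5 wild-type livers and CCl4 levels of 904, 2187, 892, 1207 and 1028. The groups did not overlap, and CCl4 replicate 2 stood above the other treated livers. The fitted difference was -1.86 ± 0.16 (log2 ± SE, adjusted p = 3.4e-15), which left 29.1% of the vehicle mean. Knockout livers at 12 h had F7 levels of 3357, 4953, 3260.2 and 3737 with vehicle and 2429.8, 1158, 969 and 1219 with CCl4, again without overlap, and a difference of -1.48 ± 0.18 (adjusted p = 7e-10). F7 was already lower at 4 h, by -0.81 ± 0.16 in wild type and -0.71 ± 0.16 in the knockout. At 24 h the differences were -1.69 ± 0.16 and -1.75 ± 0.16, and by day 7 CCl4 livers held 3916 to 4473 in wild type against 3992 to 4709.9 with vehicle.

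F9, the hemophilia B protease, read 7213, 7319, 7632, 8856 and 8228 in wild-type vehicle livers at 12 h and 2321, 3981, 1666, 2407 and 2402 after CCl4. Treated livers were all below the vehicle livers, with a difference of -1.67 ± 0.15 (adjusted p = 1.3e-14). In the knockout, vehicle livers held 7972, 7878, 8263 and 8144 and CCl4 livers 4899, 2195, 2629 and 2040.2, also apart, and the difference was -1.55 ± 0.17. At 24 h F9 had differences of -1.04 ± 0.15 and -1.13 ± 0.15, smaller than at 12 h by point estimate. At 4 h they were -0.43 ± 0.15 and -0.56 ± 0.15, and wild-type CCl4 replicate 1, at 8031, lay within the vehicle range of 5996 to 9766. The other 4 members at 12 h ran from -1.24 (Proc) to -1.52 (F10) in wild type, with Pros1 at -1.42 and F2 at -1.38. F10 lies 1.5 kb from F7 on the same strand of chromosome 8, and its knockout difference at 12 h was -1.33.

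Cofactor F5, the contact proteases F11, F12 and Klkb1 (plasma prekallikrein), their cofactor Kng1 (kininogen) and the carrier subunit F13b of the fibrin-crosslinking enzyme made the next group. Of these 6, 2 fell at 4 h and 6 at 12 h and 24 h, in each genotype. F13b had the largest fall of any member at 12 h in wild type. Its vehicle levels were 6139, 5660.4, 5599.9, 6597 and 6235 and its CCl4 levels 931, 3211, 619, 1506 and 1424, without overlap and with replicate 2 again the highest treated liver. The difference was -2.19 ± 0.25 (adjusted p = 3.3e-11), or 25.4% of the vehicle mean. Knockout F13b read 5239, 6486, 5479 and 6057 with vehicle and 3578, 1497, 1597 and 1177 with CCl4, a difference of -1.70 ± 0.28, and replicate 1 was the highest treated liver. At day 7 wild-type CCl4 livers ranged from 2021 to 6875, the lowest being replicate 3.

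Klkb1 spread widely among vehicle livers at 12 h. Then wild-type vehicle livers held 5069.8, 1667, 1554, 2550.1 and 3608 and CCl4 livers 773, 1946, 401, 574 and 486, and treated replicate 2 lay inside the vehicle range. The difference was -1.90 ± 0.39 (adjusted p = 3.2e-05). At 24 h vehicle livers held 4458, 4377, 5027, 3964 and 3543 and CCl4 livers 930.2, 1473, 209.7, 2205 and 915, now without overlap. That difference, -2.24 ± 0.39 (adjusted p = 2.4e-06), was the largest of any member at 24 h, and the knockout gave -2.23 ± 0.39. Knockout Klkb1 at 12 h was 3135, 5099.9, 1788 and 2979 with vehicle and 2119, 525, 556 and 758 with CCl4, where replicate 1 overlapped the vehicle livers. Gm45753, a predicted gene on the same strand, overlaps Klkb1, and reads of the pair may be split uncertainly. Kng1 fell at 4 h, 12 h and 24 h, by -0.78, -1.61 and -1.15 in wild type and -0.77, -1.56 and -1.68 in the knockout. F5, F11 and F12 were not called at 4 h, and at 12 h in wild type they were at -1.84, -1.77 and -1.22.

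Fibrinolysis was covered by Plg (plasminogen, the precursor of plasmin), its inhibitor Serpinf2 (alpha 2-antiplasmin) and Cpb2 (the carboxypeptidase TAFI, which trims fibrin so that less plasminogen binds). All 3 fell at 12 h and 24 h in both genotypes. At 4 h the calls were 0 in wild type, with Serpinf2 and Plg at -0.44 ± 0.20 and -0.32 ± 0.17, and 1 in the knockout, Cpb2 at -0.64 ± 0.17. Plg in wild-type livers at 12 h was 97987, 126084, 135955, 138911 and 129682 with vehicle and 26899, 56762, 29808, 43868 and 35537 with CCl4. No treated liver reached the vehicle range, and the difference was -1.75 ± 0.17 (adjusted p = 4.5e-14). The knockout Plg levels were 126167, 105192, 130370.2 and 121234 and 70541, 33071, 34512 and 34250.1, a difference of -1.56 ± 0.18, with replicate 1 the highest treated liver.

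Cpb2 read 11518, 23871, 23438, 26649 and 21901 in wild-type vehicle livers at 12 h, where replicate 1 was inside the day 7 vehicle range of 10134 to 11587 and the others were well above it. CCl4 livers held 6627, 8144, 5653, 6727 and 6392, all below vehicle, a difference of -1.63 ± 0.17 (adjusted p = 2.1e-12). In the knockout the levels were 14977, 12216, 22185 and 20672 and 9314, 5242, 6284 and 6388, a difference of -1.35 ± 0.19. The 24 h differences were -1.12 ± 0.17 and -1.51 ± 0.17.

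Plasma serpins that trap clotting and complement proteases were Serpinc1 (antithrombin), Serpind1 (heparin cofactor II) and Serping1 (the C1 inhibitor). In wild type all 3 fell at 4 h, 12 h and 24 h, and in the knockout 2 fell at 4 h and 3 later. Serping1 in wild-type livers at 12 h was 29726, 42893, 46829, 52033 and 43615 with vehicle and 11855, 19761, 11119, 13921 and 15319 with CCl4, without overlap. Its difference was -1.59 ± 0.16 (adjusted p = 2e-13). Knockout Serping1 was 47422, 31313, 47319 and 44657 and 26168, 12516, 13199 and 14141, a difference of -1.42 ± 0.18, also without overlap.

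Serpind1 spread widely within groups. Wild-type vehicle livers at 12 h held 20084, 8847, 9147, 9321 and 13543 and CCl4 livers 3783, 12455, 2332, 3802 and 3387, so that treated replicate 2 exceeded 3 vehicle livers. Its difference was -1.44 ± 0.32 (adjusted p = 8.8e-05). In the knockout, levels of 12566, 21847, 8835 and 10774 and 14428, 5212, 4502 and 3736 overlapped through treated replicate 1, with a difference of -1.09 ± 0.35 (adjusted p = 0.0085). Serpinc1 was more even, at -1.32 ± 0.15 in wild type and -1.22 ± 0.16 in the knockout.

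**Figure D2:**
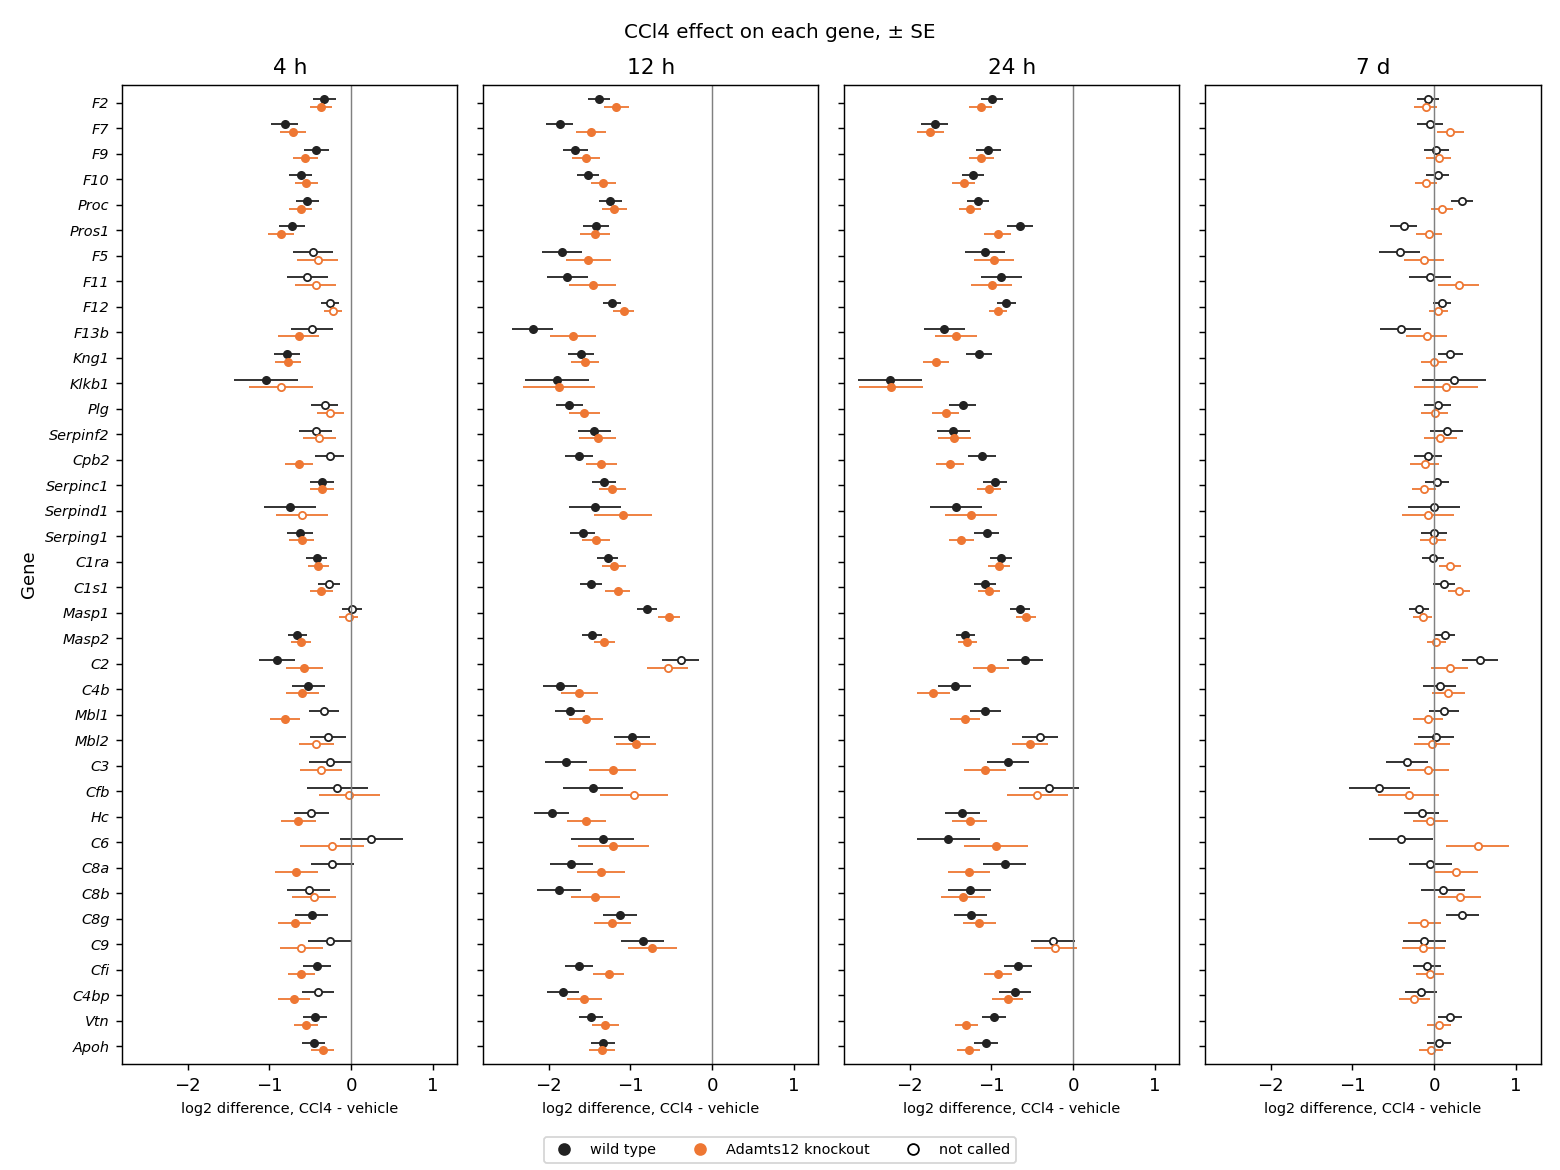
Log2 difference between CCl4 and vehicle livers (x axis, ± SE) for each of the 38 genes (y axis) at 4 h, 12 h, 24 h and day 7, in wild type (black) and Adamts12 knockout (orange), with filled points for genes called. The points of both genotypes lie left of 0 at 12 h, with medians of -1.50 and -1.34, and around 0 at day 7.

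Classical and lectin complement is started by the proteases C1ra, C1s1, Masp1 and Masp2, whose activity leads to the cutting of C4b and C2. Of these 6 members, 4 fell at 4 h, 5 at 12 h and 6 at 24 h in wild type, and 5, 5 and 6 in the knockout. C4b, complement C4, read 49819.6, 72402, 87659, 81589 and 90775 in wild-type vehicle livers at 12 h and 15977, 33244, 15119, 20825 and 22143 after CCl4. These groups were apart, with vehicle replicate 1 the lowest control and treated replicate 2 the highest treated liver, and the difference was -1.86 ± 0.20 (adjusted p = 5.4e-12). Knockout C4b was 83468, 70206, 74519 and 90877 with vehicle and 46494, 22099, 20934 and 20503 with CCl4, a difference of -1.62 ± 0.23. C4a is a near copy of C4b, so reads may be shared between them.

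C1s1, the protease that C1ra activates, was at 13827, 12323, 12548, 14202 and 14032 with vehicle and 3746, 7957, 3689, 4585 and 4876 with CCl4 in wild type at 12 h. The treated livers were all lower, at -1.49 ± 0.14 (adjusted p = 1.2e-14). In the knockout the levels were 9549, 16671, 11692 and 13538 and 7126, 5629.9, 5010.3 and 5116, a difference of -1.15 ± 0.15. C1ra, 6.9 kb away on the opposite strand, gave -1.28 and -1.20, and Masp2 gave -1.47 and -1.32. Masp1 moved less, with 0.01 ± 0.12 at 4 h, -0.80 ± 0.12 at 12 h and -0.65 ± 0.12 at 24 h in wild type.

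C2 followed another order in time than its neighbours in the pathway. In wild type its difference was -0.91 ± 0.22 at 4 h (adjusted p = 0.00058), -0.39 ± 0.22 at 12 h (adjusted p = 0.132) and -0.59 ± 0.22 at 24 h (adjusted p = 0.0234), so that 12 h was the time without a call. In the knockout the values were -0.57 ± 0.22, -0.54 ± 0.25 and -1.005 ± 0.22, with an adjusted p of 0.0666 at 12 h. The difference between 4 h and 12 h was not tested. C2 and Cfb lie 0.1 kb apart on chromosome 17, and both overlap the predicted gene Gm20547 on the same strand, so their counts are uncertain.

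Mannose-binding lectins recognise microbial sugars and carry the Masp proteases. Of the pair, 0 fell at 4 h in wild type, 2 at 12 h and 1 at 24 h, and in the knockout 1, 2 and 2. Mbl1 was 8013, 11031, 10391, 10519 and 12725 with vehicle and 2759, 3853, 2744, 3357 and 3001 with CCl4 in wild type at 12 h, apart and lower, at -1.74 ± 0.19 (adjusted p = 2.5e-12). Knockout Mbl1 read 9657, 6794, 12115 and 12361 and 4301, 2882, 2813 and 3943, again apart, a difference of -1.54 ± 0.21. For Mbl2 the same wild-type groups held 20781, 14999, 10614, 12256 and 13909.7 and 7844, 11849, 5706, 6166 and 5805, and treated replicate 2 lay within the vehicle range. The Mbl2 difference was -0.98 ± 0.22 (adjusted p = 0.00011) and in the knockout, from 10146, 17494, 12137 and 11579 to 12954, 5283, 4514 and 6131, -0.93 ± 0.24. At 24 h Mbl2 was at -0.40 ± 0.22 (adjusted p = 0.12) in wild type and -0.53 ± 0.22 (adjusted p = 0.0423) in the knockout.

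C3, where all routes meet, and Cfb (factor B), its partner in the alternative route, gave 0 calls at 4 h, 2 at 12 h and 1 at 24 h in wild type, and 0, 1 and 1 in the knockout. C3 had the highest level per kb of any member in day 7 vehicle livers of wild type. In wild-type vehicle livers at 12 h it was 450100.0, 1083585, 1142416, 1083856 and 933750.2, with replicate 1 far below the other 4, and after CCl4 182793, 313849.8, 205788, 296338 and 328288. Every treated liver was below every vehicle liver, and the difference was -1.79 ± 0.26 (adjusted p = 1.6e-08). Knockout C3 was 965313, 530623, 1138239 and 997485 with vehicle and 613346, 371240.4, 340965 and 257412 with CCl4, overlapping because vehicle replicate 3 was low and treated replicate 1 high, with a difference of -1.22 ± 0.29 (adjusted p = 0.00033). At 24 h wild-type levels were 960842, 1074929, 1072983, 1007474 and 851495 with vehicle and 611314, 806360.4, 326604, 552250.4 and 681652 with CCl4, a difference of -0.79 ± 0.26, and the knockout difference was -1.08 ± 0.26. Both sets of treated livers at 24 h included values above the day 7 vehicle range of 423038 to 529655 in wild type and 366734 to 652115 in the knockout.

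Cfb was the lowest member per kb in the same livers. Wild-type livers at 12 h held 134, 202, 232, 151 and 427 with vehicle and 36.7, 125, 66.4, 124 and 64.6 with CCl4, without overlap and with a difference of -1.46 ± 0.37 (adjusted p = 0.00058). Knockout levels were 246, 296, 208 and 449.8 and 303, 160.2, 84.1 and 116, which overlapped through treated replicate 1, and the difference of -0.96 ± 0.41 was not called (adjusted p = 0.0505). At 24 h Cfb differences were -0.29 ± 0.37 and -0.44 ± 0.37, not called in either genotype.

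Terminal components Hc (complement C5), C6, the C8 chains C8a, C8b and C8g, and C9 build the membrane pore. Among these 6, 1 fell at 4 h, 6 at 12 h and 5 at 24 h in wild type, and 3, 6 and 5 in the knockout. Hc read 24475, 29228, 32039, 31753 and 36755 with vehicle and 6526, 14935, 5164, 7141 and 8216 with CCl4 in wild type at 12 h. Treated livers were all lower, replicate 2 the least so, at -1.96 ± 0.22 (adjusted p = 7.4e-12). Knockout Hc was 35663, 38686, 29980.0 and 38807 and 26839, 9527, 8903 and 9921, a difference of -1.54 ± 0.24 (adjusted p = 2.9e-07), with replicate 1 close to the vehicle livers.

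C8b was at 11097, 10209, 9483, 10749.6 and 11848 with vehicle and 2333, 7443, 1823, 2078 and 3129 with CCl4 in wild type at 12 h, apart with a difference of -1.88 ± 0.27 (adjusted p = 1.2e-08). Knockout livers held 8269, 11479.6, 10653 and 10525 and 6726, 2772, 3809 and 2859.5, a difference of -1.43 ± 0.30. C8a, 11.1 kb from C8b, gave -1.72 and -1.36 at 12 h, while C8g on chromosome 2 gave -1.13 and -1.22. C6, a low and variable gene, gave -1.34 ± 0.39 and -1.21 ± 0.43. C9 fell at 12 h, by -0.85 ± 0.27 and -0.73 ± 0.30, and at 24 h its values of -0.24 ± 0.27 and -0.22 ± 0.27 were not called.

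Regulators were Cfi, the protease that cuts C3b and C4b, and C4bp, its cofactor for C4b, set here with the adhesive protein Vtn (vitronectin), which blocks the terminal pore, and the phospholipid-binding Apoh. Of these 4, 3 fell at 4 h in wild type and 4 in the knockout, and all 4 fell at 12 h and 24 h. C4bp was 14777, 24908, 25175, 27196 and 28898 with vehicle and 5273, 10064, 4722, 7064 and 7371 with CCl4 in wild type at 12 h, where vehicle replicate 1 was low but still above the treated livers. The difference was -1.82 ± 0.19 (adjusted p = 2e-12), and the knockout, at 24643, 20457, 27881 and 33884 and 14616, 7094, 7619 and 7885, gave -1.56 ± 0.22. By 24 h C4bp levels were 31889, 26144, 30368, 27569 and 25190.0 with vehicle and 23552, 22663, 10598, 15346 and 17000.1 with CCl4 in wild type, still apart but different by only -0.71 ± 0.19.

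Cfi read 26873, 25684, 24558, 28577 and 28354 with vehicle and 6469.9, 16201, 6254, 8165 and 8995 with CCl4 in wild type at 12 h, without overlap and with a difference of -1.63 ± 0.17 (adjusted p = 1.1e-12). Its knockout levels were 24669.7, 29823, 26161 and 27409 and 19829, 9486, 9737 and 8671, a difference of -1.26 ± 0.19, and treated replicate 1 was again the highest. Vtn and Apoh gave -1.48 and -1.34 in wild type and -1.31 and -1.35 in the knockout.

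**Figure D3:**
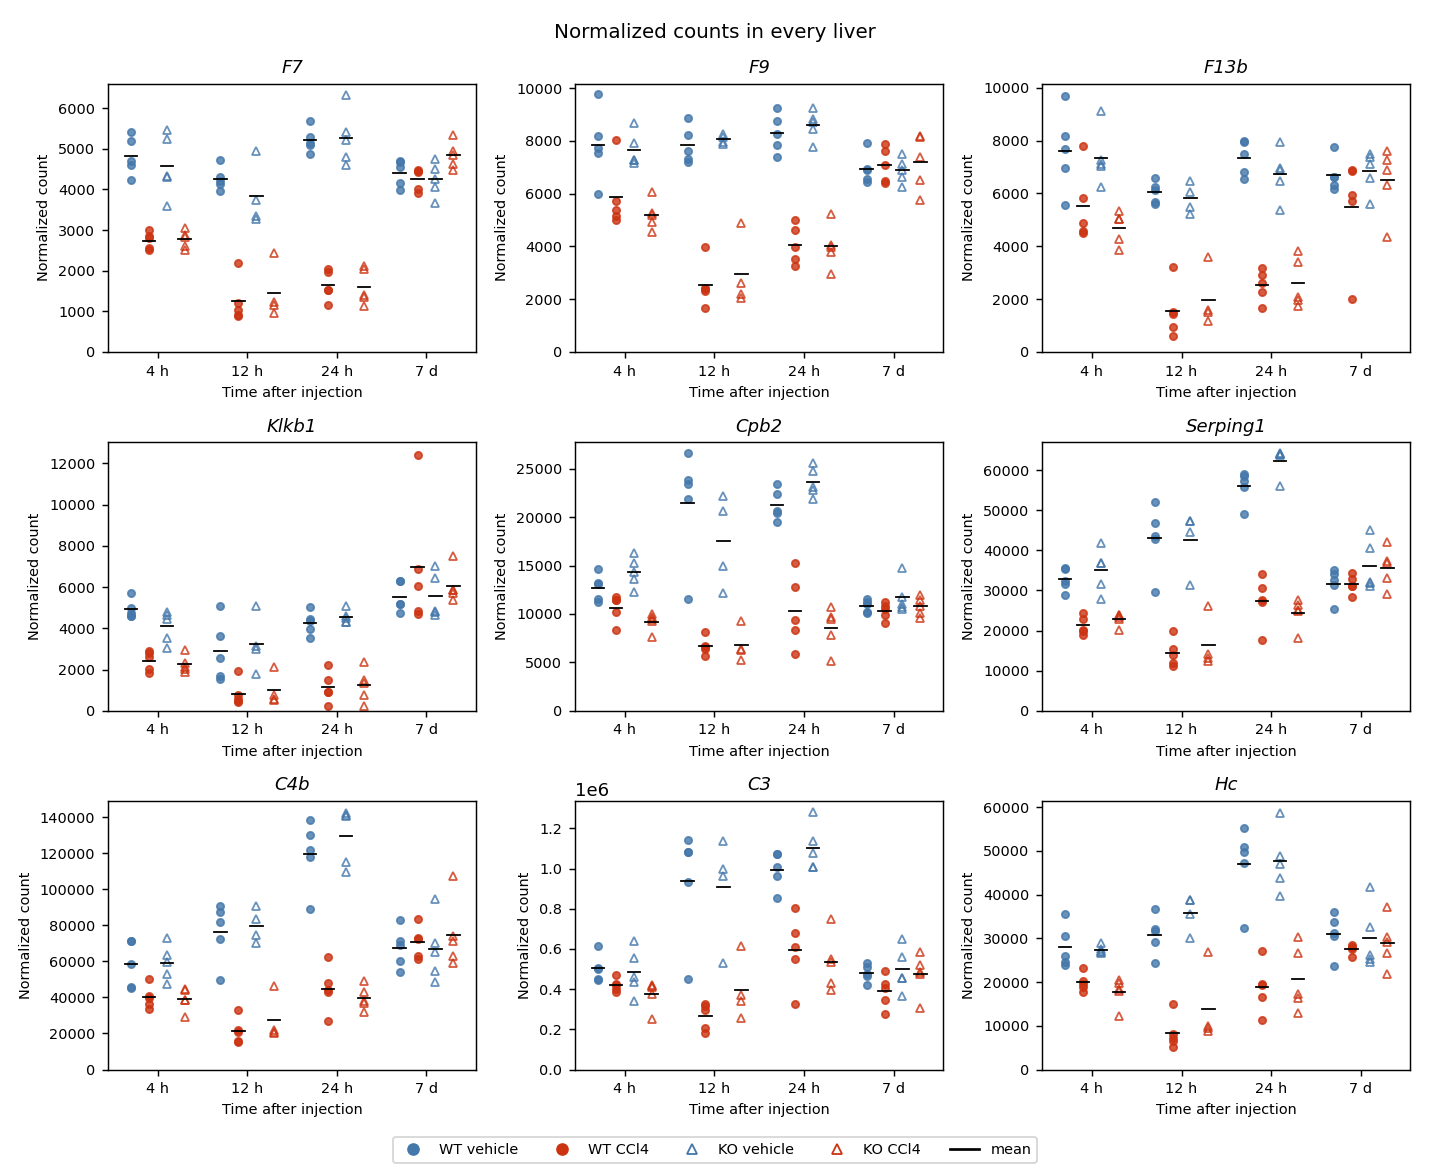
Normalized counts of 9 members in every liver used (y axis, linear from 0) by time after injection (x axis), for wild type (circles) and knockout (triangles) with vehicle (blue) or CCl4 (red), lines being group means. At 12 h the means of treated livers lie below those of vehicle livers. Wild-type replicate 2 and knockout replicate 1 are the highest treated livers then for F7, at 2187 and 2429.8.

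Whether the fall had eased between 12 h and 24 h was tested as the difference of the CCl4 effects, a comparison added after the data had been seen. In wild type 4 members had a significantly smaller fall at 24 h, with 4.72% of all genes called in that direction: F9 by 0.63 ± 0.22, Pros1 by 0.77 ± 0.23, Cfi by 0.96 ± 0.24 and C4bp by 1.11 ± 0.27. At an unadjusted p under 0.05 there were 18. In the knockout limma called 0, with 2 at an unadjusted p under 0.05 and 1.24% of all genes called in that direction. The wild-type count was 16 with quantile normalization and 2 with all 80 libraries, and the knockout count 1 (C4bp) and 0. It also rested on single libraries in wild type: it was 19 without CCl4 12 h replicate 2, 14 without CCl4 24 h replicate 3 and 9 without vehicle 12 h replicate 1. Without knockout CCl4 12 h replicate 1 the knockout count was 3 (F9, Pros1 and C4bp), and without CCl4 24 h replicate 5 it was 1 (C4bp). The wild-type comparison also carries the uneven mouse numbering of the vehicle and CCl4 livers at 12 h and 24 h.

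Vehicle livers were not constant over the days after injection. Against the day 7 vehicle livers of the same genotype, wild-type vehicle livers differed for 0 members at 4 h (4 at an unadjusted p under 0.05), 10 at 12 h and 10 at 24 h, and knockout vehicle livers for 1, 9 and 15. Over all genes 20.8%, 24.8% and 5.52% were called in wild type and 27.3%, 19.2% and 16.4% in the knockout. Beside these shares, members were called less often at 4 h, about as often at 12 h and more often at 24 h. At 24 h all 10 wild-type calls were rises, where 2.74% of all genes rose, and in the knockout 14 rose, where 9.75% of all genes rose, and Mbl2 fell, at -0.70 ± 0.22.

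The rises at 24 h included C3 (1.05 ± 0.26 in wild type and 1.17 ± 0.26 in the knockout), Cpb2 (0.97 ± 0.17 and 1.02 ± 0.17) and C8a (0.96 ± 0.26 and 1.38 ± 0.26). Kng1, Serping1, C4b, C4bp, Vtn, Plg and Pros1 also rose in both genotypes, by 0.51 (Pros1) to 0.85 (Kng1) in wild type. The wild-type count at 24 h was 5 (Kng1, Cpb2, Serping1, C8a and C4bp) with quantile normalization. In the knockout alone the test called Mbl1, Hc, C8b and Masp1, and the genotypes were not tested against each other for this change. C3 in vehicle livers went from 503411 ± 68226 (mean ± SD, n = 5) at 4 h to 938741 ± 283865, 993544 ± 92703 and, at day 7, 481093 ± 41652 in wild type.

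At 12 h 7 members rose in wild-type vehicle livers, where 13.4% of all genes rose: Kng1, Cpb2, Serping1, Mbl1, C3, C4bp and Vtn, from 0.43 (Serping1) to 0.93 (Cpb2). Klkb1, Serpind1 and C8g fell, at -1.08 ± 0.39, -0.91 ± 0.32 and -0.54 ± 0.20, where 11.4% of all genes fell. In the knockout 6 rose (Pros1, Cpb2, Mbl1, C3, C8a and C4bp) and 3 fell (Serpind1, Mbl2 and C8g), beside 11.1% and 8.05% of all genes. With the left-out libraries kept, 0 rose and 9 fell in the knockout. Vehicle replicate 1 of wild type at 12 h differed from its group in these genes, with the lowest C3, Cpb2 and C4bp and the highest Klkb1 and Serpind1, and the count without it was 12. This control held 1908 normalized counts of Sprr1a and 1603 of Hspb1, against 1.7 to 5.9 and 114 to 325 in the other 4, while the wild-type CCl4 livers at 12 h held at least 38796 of Sprr1a and 24741 of Hspb1. The count without this control is the 12 given above, and why it stood apart was not tested. Without vehicle 12 h replicate 4 the wild-type count was 3 and the knockout count 1. The 4 h call in the knockout was Pros1, at 0.60 ± 0.16. An F test over the 4 times called 15 members in wild type and 18 in the knockout, beside 38.9% and 41.7% of all genes. By these shares the members were called about as often as all genes, both at 12 h and over the 4 times.

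Acute phase genes, listed from general knowledge, moved with these vehicle livers: 16 of 17 rose at 12 h and 14 at 24 h in wild type, and 13 and 13 in the knockout, with medians of 2.31, 2.57, 1.56 and 2.67. The fibrinogen chains Fga, Fgb and Fgg rose at 12 h by 2.24, 2.12 and 1.96 in wild type. The part of this response in the members' rise was not tested. Since 4 of the 5 wild-type vehicle livers at 24 h came from mice numbered below 7000 in the labels, the count without those mice, 1 (Kng1), rests on a single vehicle liver.

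Set against day 7 vehicle livers, another comparison added after the data had been seen, CCl4 livers had 25, 38 and 29 members lower at 4 h, 12 h and 24 h in wild type and 27, 35 and 29 in the knockout, and none higher. With quantile normalization C8a and C4bp were called higher at 24 h, by 0.59 and 0.58 in wild type and 0.66 and 0.58 in the knockout. Over all genes 28.3%, 34.4% and 27.2% were lower in wild type and 27.1%, 28.8% and 23.8% in the knockout. In wild type at 24 h the 9 members not called were Pros1, Kng1, Cpb2, Serping1, C3, Cfb, C8a, C9 and C4bp. C3 then differed from day 7 vehicle by 0.25 ± 0.26, against -0.79 ± 0.26 from vehicle at 24 h. F7, whose mean vehicle level was 5218.5 ± 297.5 at 24 h and 4413.6 ± 322.7 at day 7 (SD, n = 5), gave -1.45 ± 0.16 against -1.69 ± 0.16.

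Together the 38 genes made up 1.81% to 6.884% of the normalized counts of a library. In wild type the median share at 4 h, 12 h, 24 h and day 7 was 3.85%, 5.38%, 6.20% and 4.43% with vehicle and 3.20%, 2.34%, 4.41% and 4.01% with CCl4. In the knockout it was 3.92%, 5.44%, 6.32% and 4.12% with vehicle and 3.12%, 2.77%, 3.97% and 4.46% with CCl4. Shares with vehicle were thus higher at 12 h and 24 h than at 4 h or day 7, and with CCl4 the lowest were at 12 h. Wild-type vehicle replicate 1 at 12 h was at 3.84%, below the other livers of its group, and knockout CCl4 replicate 1 at 12 h was at 4.33%, above the others of its own.

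**Figure D4:**
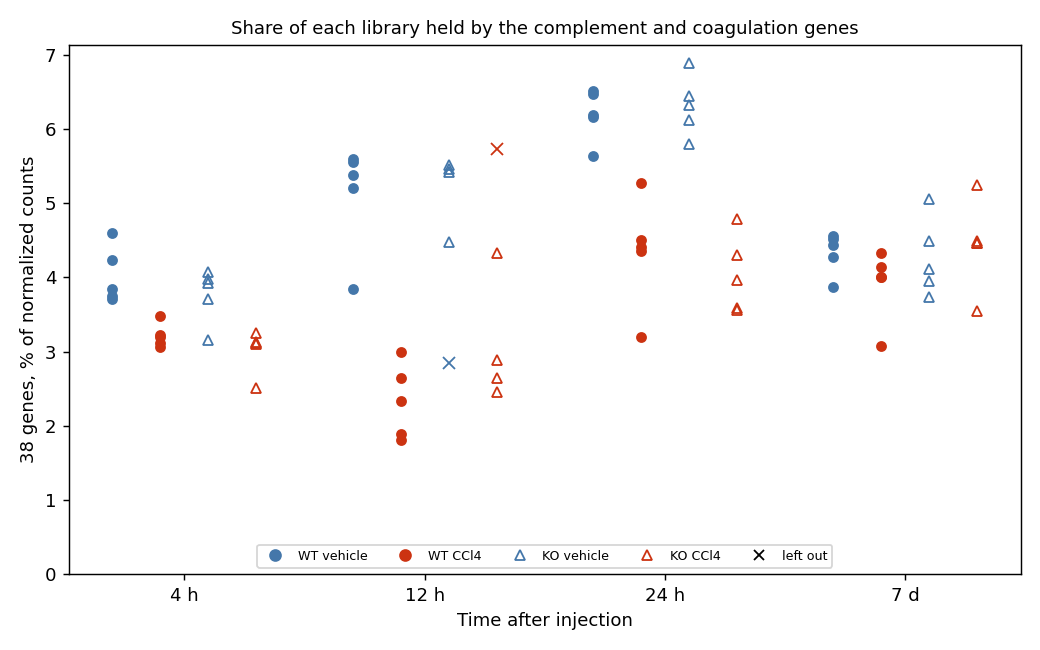
Share of each library's normalized counts held by the 38 genes (y axis, percent) by time after injection (x axis), for wild type (circles) and knockout (triangles) with vehicle (blue) or CCl4 (red), crosses being libraries left out. The CCl4 groups at 12 h have the lowest medians, 2.34% and 2.77%, though knockout replicate 1 of that time is at 4.33%.

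The order of levels per kb of exon was led, in wild-type vehicle livers at day 7, by C3 with 93543 normalized counts per kb, Vtn with 43615, Apoh with 38227 and Plg with 27411. C3 was above Vtn in every liver, whereas Vtn and Apoh overlapped in range, as did most neighbours further down the order. The lowest were C6 at 340.3, C2 at 126.2 and Cfb at 96.6 per kb, and C2 and Cfb overlapped.

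No member's response to CCl4 was called different between wild-type and Adamts12-/- livers. For the difference of the CCl4 effect between genotypes limma called 0 members at each time, with 0, 0, 1 and 0 at an unadjusted p under 0.05, and 0.00687% of all genes were called at 4 h and at day 7 and 0 at the other times. The members' median difference, knockout minus wild type, was -0.04 at 4 h, 0.18 at 12 h, -0.10 at 24 h and -0.02 at day 7. At 12 h single members ran from -0.16 to 0.57, and the 95% intervals from -1.15 to 1.61. These intervals stayed within a difference of 1 in either direction for 32, 27, 31 and 31 of the 38 members at the successive times, and for the rest a difference above 1 was not excluded.

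Between CCl4 livers of each genotype limma also called 0 members at each time, with 1, 5, 1 and 0 at an unadjusted p under 0.05, beside 0.584%, 0.0206%, 0.0137% and 0 of all genes. The 5 at 12 h, all higher in the knockout, were C3 (0.54 ± 0.27), Cfb (0.96 ± 0.39), Hc (0.65 ± 0.23), Cfi (0.38 ± 0.18) and C4bp (0.42 ± 0.20), with adjusted p of 0.387 for Hc. For all 5, knockout CCl4 replicate 1 was the highest of the knockout treated livers, with Hc at 26839. Without this liver 0 members were called, and the sizes of the 5 differences without it were not compared. Without wild-type CCl4 12 h replicate 2, Hc was called at 0.88 (adjusted p = 0.0413), and every other single removal left 0 calls. At the other times the members under the unadjusted limit were C1ra at 4 h (0.34 ± 0.13) and Kng1 at 24 h (-0.41 ± 0.16). The share of all genes under that unadjusted limit was not counted. Averaged over the 4 vehicle times, 0 members were called and 0 had an unadjusted p under 0.05, beside 0.282% of all genes (0.11% higher and 0.172% lower), and for all 38 the interval lay within 1 in either direction.

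Genes of the same pathways outside the set, listed from general knowledge, were compared at 12 h too. All 3 fibrinogen chains fell in both genotypes, Fga at -1.87 and -1.44. Of 19 other measured clotting and fibrinolysis genes, some of other cells and some hepatic, 6 rose and 8 fell in wild type and 7 rose and 5 fell in the knockout. Over all genes 29.0% rose and 29.4% fell in wild type and 23.6% and 23.1% in the knockout. Among the 19 the urokinase receptor Plaur rose by 4.84 ± 0.54 and 6.45 ± 0.60 and the protein C receptor Procr by 3.34 ± 0.36 and 3.71 ± 0.40, while the hepatic plasma proteins Hrg and Proz fell, at -1.90 and -2.03 in wild type. In the vitamin K cycle the carboxylase Ggcx fell, at -1.79 ± 0.29 and -1.44 ± 0.33 and the reductase Vkorc1 at -0.93 and -1.15, and Vkorc1l1 rose by 0.65 and 0.31. Other complement genes, 26 measured, gave 15 falls and 2 rises in wild type and 13 falls and 0 rises in the knockout, with Cpn1 at -1.27 and -1.37.

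Hepatocyte markers moved with the members. At 12 h 10 of 11 measured markers fell in both genotypes, with medians of -1.15 and -0.92, and at 24 h 7 of 11 fell. Their summed level at 12 h was 1687395 to 3602199 with CCl4 in wild type, below the vehicle sums, and 2006387 to 3627626 in the knockout against 4310236 to 5748813 with vehicle. Markers of Kupffer cells fell too, 5 of 7 in each genotype at 12 h, as did 8 of 8 sinusoidal endothelial markers in wild type and 3 of 8 in the knockout. Of 9 monocyte and macrophage markers, 2 rose and 2 fell in wild type and 2 rose in the knockout, and 3 of 5 cholangiocyte markers rose in both. Among all genes at 12 h, 29.4% fell and 29.0% rose in wild type, and 23.1% and 23.6% in the knockout. No defining marker was at 0 throughout a group, and the part of the marker shifts in the members' fall was not tested.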

How the data were processed

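RNA of 80 mouse livers was sequenced with a stranded mRNA kit. The deposited values are normalized counts per gene (a signal), which the authors made from read counts. The submitters' processing notes name STAR, HTSeq, DESeq2 and the build GRCm38, with no versions. The strand setting of the counting is not given in the sources used here. Within each library the deposited values were whole multiples of 1 step (100% within a tolerance of 0.01), which gave totals of 18.6 to 64.5 M reads. Totals describe depth and entered no test. Identical libraries were looked for and 0 pairs found (highest correlation 0.9897).

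Knockout 12 h CCl4 replicate 5 and vehicle replicate 1 were left out because they stood with the other treatment. The filter on low values asked for 10 or more normalized counts in 5 or more libraries, and 14558 of 14560 genes passed. Values were fitted as log2(value + 1) with limma 3.58.1 in R 4.3.3, with a mean for each of 16 groups over 78 libraries and an empirical Bayes variance trend. The median residual SD was 0.334, with 66.8 total degrees of freedom. Every fold change is on that log2(value + 1) scale, and the SE rests on the spread over all groups. Two-sided p-values were adjusted by Benjamini-Hochberg within each of the 33 comparisons over all genes, and an adjusted p under 0.05 was called. The fitting script was tested on simulated data. No source says that the mice of a group came from separate litters or days, so p-values measure the spread between these animals.

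The members and the gene lists were chosen with earlier results of these data known. Values in every liver are given for up to 2 members per role, those with the largest called CCl4 change, and every member could be named. Of the other lists up to 4 genes with the smallest adjusted p were named. Genes were placed with GENCODE M21 (14550 of 14560, and all 38 members), and promoters came from RefSeq. Alternatives were all 80 libraries, a pseudocount of 8, no filter, a mean of at least 100, quantile normalization, no variance trend, replicate number as a block, leaving out wild-type mice numbered below 7000, and leaving out each replicate. The changes from 12 h to 24 h and the CCl4 livers against day 7 vehicle livers were compared after seeing the data. Summaries and figures were made with Python 3.11.15, pandas 2.3.3 and matplotlib 3.10.9.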

Additional observations from a re-analysis of the deposited data

Results flagged for a closer look

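In the 18 members shown by liver, 31 of 288 member and group combinations had a liver farther from the rest of its group than Dixon's limit allows. Chance alone marks about 1 in 20 groups. Members measured in the same livers are not independent, and 15 of the 31 came from 2 treated livers at 12 h.

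Knockout CCl4 12 h replicate 1 stood above its group for F7 (2430 normalized counts), Klkb1 (2119), Plg (70541), Serping1 (26168), Serpind1 (14428), C4b (46494), Hc (26839), C4bp (14616) and Cfi (19829). Wild-type CCl4 12 h replicate 2 stood above its group for F7 (2187), Klkb1 (1946), Serpind1 (12455), C1s1 (7957), C8b (7443) and Cfi (16201). The Sprr1a counts of these livers, 30657 and 45055, lay far above those of the vehicle livers kept at 12 h, the highest of which, wild-type replicate 1, had 1908, and the first was the lowest of the treated livers kept.

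At 4 h wild-type CCl4 replicate 1 was high for F9 (8031), C1s1 (13826) and Mbl2 (22422), and knockout CCl4 replicate 4 was low for Serping1 (20130.2) and C3 (252472). Among vehicle livers, wild-type 12 h replicate 1 was low for C4bp (14777), wild-type day 7 replicate 1 was high for F13b (7767), knockout day 7 replicate 1 was high for Cpb2 (14756) and Mbl1 (9647), and knockout 24 h replicate 3 was low for Serping1 (56120.2). Among later CCl4 livers, knockout 24 h replicate 4 was low for Serping1 (18033). At day 7 wild-type CCl4 replicate 3 was high for Klkb1 (12411) and low for F13b (2021) and Cfi (15816), knockout CCl4 replicate 3 was high for Klkb1 (7509), and knockout CCl4 replicate 1 was high for Mbl2 (25983).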

How the results depend on the processing

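Of 187 calls of single members after CCl4, 0 reversed under any alternative run. With all 80 libraries 31 of the 187 were no longer called, with quantile normalization 30, without a variance trend 2 and, of 91 wild-type calls, 14 without mice numbered below 7000. Counts moved by more than 1.5 times as follows. With all 80 libraries, wild-type 4 h gave 9 and knockout 4 h 14, wild-type vehicle livers against day 7 gave 3 at 12 h and 5 at 24 h, their F test 9, the change from 12 h to 24 h in wild type 2, and wild-type CCl4 4 h against day 7 vehicle 16. Without wild-type mice numbered below 7000, which left 1 vehicle liver at 24 h, assumed to vary like the other groups, the wild-type 24 h count was 21, vehicle 24 h against day 7 gave 1, the F test 7 and CCl4 4 h against day 7 vehicle 14. With quantile normalization wild-type vehicle livers against day 7 gave 3 at 4 h, 6 at 12 h and 5 at 24 h, knockout vehicle livers 3 at 4 h, the change from 12 h to 24 h 16 in wild type and 1 in the knockout (C4bp), and knockout CCl4 24 h against day 7 vehicle 19. With all 80 libraries the members' median log2 difference at 4 h stayed at -0.44 in wild type and -0.57 in the knockout, as no 4 h library was added. The causes were not tested.

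Leaving out 1 replicate at a time gave 12 to 18 wild-type calls at 4 h, 37 at 12 h, 33 to 36 at 24 h and 0 to 1 at day 7 (C2, without CCl4 replicate 4), and 16 to 23, 34 to 38, 34 to 35 and 0 in the knockout. The wild-type 4 h count fell to 12 without CCl4 replicate 2. Between CCl4 livers of the genotypes at 12 h it gave 0 to 1 calls (Hc, without wild-type replicate 2). For vehicle livers against day 7 the ranges were 0 to 1 (C6, without vehicle 4 h replicate 1 or day 7 replicate 3 or 4) at 4 h, 3 to 12 at 12 h and 7 to 10 at 24 h in wild type, and 1 to 2 (Pros1 and C6), 1 to 10 and 11 to 17 in the knockout. The 12 h counts fell to 6 or fewer without wild-type vehicle 12 h replicate 2, 3 or 4 (4, 5 and 3) or day 7 replicate 2 or 5 (6 each), and to 5 or fewer without knockout vehicle 12 h replicate 2, 4 or 5 (4, 1 and 2) or day 7 replicate 1 or 4 (5 and 4). The change from 12 h to 24 h gave 3 to 19 in wild type and 0 to 3 in the knockout.

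Replicate numbers did not pair the livers. Deviations of equal-numbered livers from their group means had a median correlation of -0.0056, with a range of -0.40 to 0.44, against 0.001 for other pairs, and the replicate block moved 1 count by more than 1.5 times, that for wild-type vehicle livers at 4 h against day 7, to 1 (C6). The planned edgeR test and TMM scaling were not run. As to depth, 3 reads were worth at most 6.015 normalized counts in a library, below the lowest value of Cfb in any liver used, 36.7.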

Other observations

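Transcription factors of hepatocytes, 16 measured, were listed from general knowledge, and some, like Rela, are not particular to hepatocytes. At 12 h after CCl4 9 fell and 1 rose in each genotype, with medians of -0.74 and -0.70. Over all genes 29.4% fell and 29.0% rose in wild type, and 23.1% and 23.6% in the knockout. Hnf4a, which drives many hepatocyte genes, fell, at -1.35 ± 0.15 in wild type (limma with Benjamini-Hochberg adjustment, adjusted p = 4.3e-12) and -1.34 ± 0.16 in the knockout, as did Prox1, at -1.88 and -1.27. The bile acid receptor Nr1h4 fell, at -1.25 and -1.07. Rela, a subunit of NF-kB, was the gene that rose, by 1.40 ± 0.13 and 1.32 ± 0.14. In vehicle livers of wild type at 12 h, Cebpd and Cebpb were higher than at day 7, by 2.44 ± 0.38 and 1.95 ± 0.39.

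Acute phase genes were called in both directions after CCl4, with more falls than rises at 12 h and 24 h in each genotype. The vehicle livers of these times, against which the calls were made, were themselves higher than at day 7 for most of this list. At 12 h 2 of 17 rose and 8 fell in wild type, and 2 rose and 3 fell in the knockout. Among all genes 29.0% rose and 29.4% fell in wild type, and 23.6% and 23.1% in the knockout. The endotoxin coreceptor Cd14 rose by 3.29 ± 0.46 and 4.51 ± 0.52 and the interleukin 1 antagonist Il1rn by 2.74 ± 0.57 and 3.13 ± 0.63. Itih4 and Itih3, plasma proteins of hepatocytes, fell, at -2.17 and -1.89 in wild type. At 24 h 4 of 17 fell and 3 rose in wild type, and 12 fell and 3 rose in the knockout. Of all genes, 25.0% fell and 26.2% rose then in wild type, and 23.0% and 21.1% in the knockout. Neither list was tested against other genes.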
